A study of Sus scrofa with 6 samples.

Results

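The genes of excitation-contraction coupling, the step that turns an electrical signal on the muscle membrane into calcium release, were examined in skeletal muscle from UCP1 KI and WT pigs. The members were 10 genes listed by symbol for the calcium release apparatus and for the regulators of the calcium pump, by their known roles and not by a threshold on measured values. A row was found for 7 of them among the 30476 Ensembl pig genes of the count table. These 7 were *CACNA1S*, *CACNB1*, *JPH1*, *TRDN*, *JSRP1*, *CASQ1* and *SLN*, and all 7 passed the filter on low counts. The remaining 3, *RYR1*, *STAC3* and *PLN*, had no identifier of the table under their symbol in the gene name table used, and they were not analysed here.

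RNA-seq was performed on longissimus dorsi, a muscle of the back, from 3 pigs with an adipocyte-specific UCP1 knock-in (UCP1 KI) and 3 WT pigs. All were 6 months old, and every pig gave 1 library. UCP1 is the mitochondrial uncoupling protein of thermogenic fat, and the knock-in places it in adipocytes, so the muscle fibres studied here are not the cells meant to carry it. The labels give the genotypes as UCP1-KI and WT and name no breed, sex or litter. *UCP1* itself was not analysed here, so the genotype was not checked against its counts. Counts on genes summed to between 30220951 and 35066624 per pig, and the limit set by a count of 0, taken as 3 counts, was 0.0794 to 0.11 CPM and covers counting error only. CPM is the count scaled to a library total of 1000000 after TMM normalization, and a log2 fold change below 0 means a lower level in UCP1 KI pigs.

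In skeletal muscle, an action potential travels along the transverse tubules and moves the voltage sensor, the L-type calcium channel. The sensor opens the ryanodine receptor of the sarcoplasmic reticulum by direct mechanical contact at the triad, the junction where both membranes meet. Calcium stored on calsequestrin then floods the fibre and starts contraction, and SERCA pumps return it to the store. Small membrane proteins, among them sarcolipin and phospholamban, hold back the pump, and sarcolipin is known in mice for raising heat production in muscle.

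None of the 7 members passed the limits between UCP1 KI and WT pigs. A gene was called when its unadjusted p in the quasi-likelihood test of edgeR was under 0.05 and its log2 fold change was beyond 0.5 in size. By this rule 0 of the 7 members were called, against 8.19% of the 13402 genes tested, 3.84% higher and 4.34% lower in UCP1 KI pigs, and 0 members also passed the p limit alone, which 8.21% of all genes did. By adjusted p, 0% of all genes and 0 members passed 0.05, the smallest adjusted p being 0.160. All 7 had log2 fold changes below 0, as did 51.3% of all genes tested, with a median of -0.41 over the members and -0.02 over all genes. The count below 0 was 5 of 7 with library size only, 4 of 7 without UCP1 KI replicate 2 and 4 of 7 without WT replicate 3. The groups overlapped for each of the 7. Over all genes tested they were apart for 15.3%, 7.69% lower and 7.59% higher in UCP1 KI pigs. With 7 members, a count of 0 does not set them apart from shares of this size. *TRDN* came closest to the limits, at 58.4% of its WT mean. Since 3 pigs against 3 give wide intervals, these results do not show that the members were alike in both genotypes. In whole muscle, fewer fibres of a type and less RNA per fibre cannot be told apart.

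*CACNA1S* (ENSSSCG00000024784; Sscrofa11.1 chromosome 10, 23503701 to 23567797) encodes the pore and voltage sensor of the L-type channel. It was measured at 158, 105 and 192 CPM in UCP1 KI replicates 1 to 3 and at 156, 129.7 and 192 CPM in WT replicates 1 to 3. The lowest value belonged to UCP1 KI replicate 2, and the highest in each group were almost the same. The UCP1 KI mean was 152 ± 43.9 CPM and the WT mean 159 ± 31.0 CPM (SD, 3 pigs each). Its log2 fold change was -0.07 ± 0.30 (SE), with a 95% interval of -0.76 to 0.63 and an adjusted p of 0.959 by edgeR with Benjamini-Hochberg adjustment.

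*CACNB1* (ENSSSCG00000017510; chromosome 12, 23038185 to 23060504) encodes the intracellular beta subunit that carries the channel to the triad. The CPM values were 169, 97.0 and 245 in the UCP1 KI group against 109, 181 and 273 in the WT group, so that each group ran from a low to a high pig over much the same range. The log2 fold change of -0.14 ± 0.44 (SE), with a 95% interval of -1.16 to 0.88, lay well within this spread. The means were 170.3 ± 74.2 CPM and 188 ± 82.5 CPM (SD, 3 pigs each). For both channel subunits the sign of the difference depended on 1 pig. *CACNA1S* was at 0.13 without UCP1 KI replicate 2 and at 0.09 without WT replicate 3, and *CACNB1* was at 0.13 and 0.23 in these fits.

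*JPH1* (ENSSSCG00000006174; chromosome 4, 61628304 to 61716550) encodes junctophilin 1, which ties the membranes of the triad together. Its values were 149, 137 and 164 CPM in UCP1 KI pigs and 146, 142 and 308 CPM in WT pigs. Of the 6 pigs, 5 lay between 137 and 164 CPM, and WT replicate 3 stood apart at 308 CPM. The log2 fold change of *JPH1* was -0.41 ± 0.35 (SE; 95% interval -1.22 to 0.40) with all pigs and 0.06 without WT replicate 3. The SD over the UCP1 KI pigs, 13.4 CPM around a mean of 149.7 CPM, was the smallest of the members, against 94.6 CPM around 199 CPM in WT pigs.

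*TRDN* (ENSSSCG00000027613; chromosome 1, 39180544 to 39567245) encodes triadin, the protein that anchors calsequestrin to the release channel. It was counted at 161, 124 and 261 CPM in UCP1 KI pigs and at 250.1, 319 and 365 CPM in WT pigs. UCP1 KI replicates 1 and 2 were below every WT pig, and UCP1 KI replicate 3 was above WT replicate 1 alone. The UCP1 KI mean was 182 ± 71.1 CPM and the WT mean 311 ± 57.6 CPM (SD, 3 pigs each). Its log2 fold change was -0.77 ± 0.34 (SE), with a 95% interval of -1.56 to 0.01. The unadjusted p by edgeR was 0.0523, and the p adjusted over the whole table was 0.610. *TRDN* therefore did not pass the p limit, while it did in 7 of the 13 alternative analyses, among them both DESeq2 runs with unadjusted p values of 0.0313 and 0.0351, and in none of them with an adjusted p under 0.05. The annotation holds 2 other genes that overlap *TRDN* and 1 that overlaps *JPH1*, whose reads could not be told apart from theirs if the counting ignored strand, which is not given in the sources used here.

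*JSRP1* (ENSSSCG00000031899; chromosome 2, 76418508 to 76422405) encodes a junctional protein of the sarcoplasmic reticulum that binds the voltage sensor and calsequestrin. It was at 199, 157 and 212 CPM in UCP1 KI pigs and at 184, 242 and 299 CPM in WT pigs. The higher values of the WT group came from replicates 2 and 3, and WT replicate 1 fell inside the UCP1 KI range. The log2 fold change was -0.35 ± 0.28 (SE; 95% interval -0.99 to 0.29), and its adjusted p by edgeR was 0.748. The fold change of *JSRP1* was -0.17 without WT replicate 3 and -0.08 with library size only.

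*CASQ1* (ENSSSCG00000006390; chromosome 4, 90276752 to 90288990) encodes calsequestrin 1, the main calcium store protein of fast fibres. Its CPM values of 2326, 363 and 1899 in the UCP1 KI group against 1294, 1987 and 2910.0 in the WT group spanned 8.01-fold, the widest range of the 7 members, whose other ranges went from 1.83-fold for *CACNA1S* to 3.17-fold for *SLN*. UCP1 KI replicate 2 was far below the other 5 pigs, and UCP1 KI replicate 1 was the second highest of the 6. The log2 fold change was -0.43 ± 0.65 (SE; 95% interval -1.94 to 1.08), and it was 0.03 without UCP1 KI replicate 2.

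*SLN* (ENSSSCG00000029651; chromosome 9, 36232955 to 36242405) encodes sarcolipin, the small inhibitor of the SERCA pump. It was measured at 3242, 2229.7 and 4439 CPM in UCP1 KI pigs and at 3524.5, 4532 and 7073 CPM in WT pigs. UCP1 KI replicate 3 was above WT replicate 1 and below the other WT pigs, and WT replicate 3 was the highest by a wide gap. The UCP1 KI mean was 3304 ± 1106 CPM and the WT mean 5043 ± 1829 CPM (SD, 3 pigs each), the former being 65.5% of the latter. The log2 fold change of *SLN* was -0.61 ± 0.43 (SE), and its 95% interval had an upper end of 0.38. By edgeR its unadjusted p was 0.192 and its adjusted p 0.716. It was -0.28 without WT replicate 3.

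**Figure D1:**
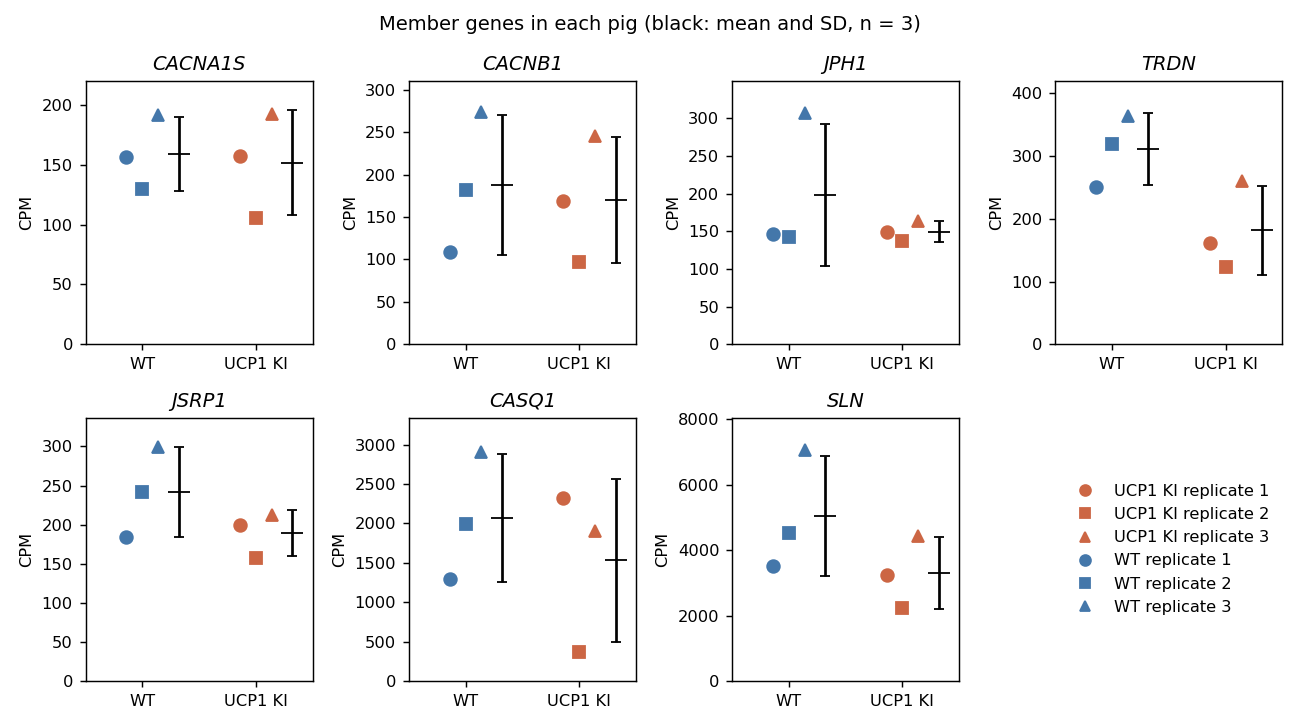
CPM of the 7 members (vertical axis, starting at 0, on a scale of its own for each gene) in the 3 WT pigs (blue) and the 3 UCP1 KI pigs (orange), with marker shape for the replicate number and black bars for mean and SD. The groups overlap for every gene, and UCP1 KI replicate 2 (orange square) is the lowest pig in all 7 panels with the TMM factors used here and in 5 with library size only.

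The same pigs were low and high for most members. UCP1 KI replicate 2 had the lowest value of the 6 pigs for 7 of the 7 members, and WT replicate 3 had the highest for 6 of the 7, the exception being *CACNA1S*, which was highest in UCP1 KI replicate 3. How many of all genes tested had the same lowest or highest pig was not counted, so this order is not shown to be particular to the members. These counts hold with TMM factors. The factors of UCP1 KI replicates 1 to 3 were 0.947, 1.18 and 1.17. Those of the WT pigs, in the same order, were 1.07, 0.781 and 0.918. With library size only, UCP1 KI replicate 2 was lowest for 5 of the 7, WT replicate 2 being lowest for *CACNA1S* and *JPH1*, and WT replicate 3 was highest for 5 of the 7, UCP1 KI replicate 3 being highest for *CACNA1S* and *CACNB1*. On the log2(CPM + 1) scale, the mean deviation of the members from their average over the 6 pigs was -0.05, -0.83 and 0.22 in UCP1 KI replicates 1 to 3 and -0.17, 0.13 and 0.70 in WT replicates 1 to 3. The members' median log2 fold change was -0.24 once UCP1 KI replicate 2 was left out. Leaving out WT replicate 3 moved it to -0.10, and 0 members were called in either fit.

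The fast fibre list had the same lowest and highest pig by its mean. Of the 10 fast fibre markers listed, 6 were found, namely *MYL1*, *TNNT3*, *TNNI2*, *TNNC2*, *ACTN3* and *MYBPC2*, and their mean deviation was 0.29, -1.55 and 0.25 in the UCP1 KI group against -0.50, 0.63 and 0.89 in the WT group. UCP1 KI replicate 2 was lowest for all 6, and the highest pig was WT replicate 3 for 4 of them and WT replicate 2 for *TNNT3* and *TNNC2*. WT replicate 1 was below the average of the 6 pigs for this list, as it was for the members. Their summed level was 15769.8 to 55076 CPM in UCP1 KI pigs and 34203 to 83402 CPM in WT pigs. All 6 had log2 fold changes below 0, with a median of -0.58, and 0 were called. The 6 slow fibre markers found of 9 listed all had log2 fold changes above 0, with a median of 0.16, and 0 were called. Their mean deviation was 0.78, 0.58 and -0.62 in the UCP1 KI group against 1.22, -1.05 and -0.91 in the WT group. They summed to between 6979.9 and 13424 CPM in UCP1 KI pigs and between 4346 and 18598 CPM in WT pigs. The part of fibre makeup in the members' values was not tested.

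**Figure D2:**
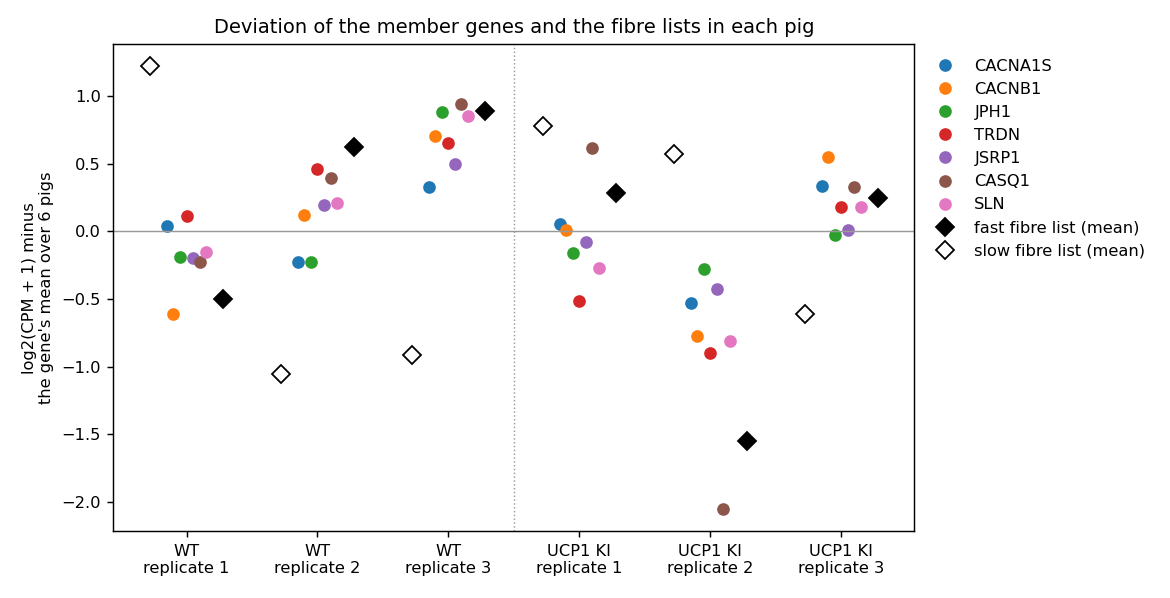
Deviation of each member from its mean over the 6 pigs on the log2(CPM + 1) scale (vertical axis) for each pig (horizontal axis), with the means of the fast fibre list (black diamonds) and the slow fibre list (open diamonds). All 7 members are below 0 in UCP1 KI replicate 2 and above 0 in WT replicate 3, where the fast fibre list is at -1.55 and 0.89.

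The profile most like that of *SLN* was sought among 5594 other genes with a symbol and a mean of at least 10 CPM, by the root mean square difference of centred log2(CPM + 1) values over the 6 pigs. It was that of *MYOM1*, which encodes the M-band protein myomesin 1, at a difference of 0.0918. *MYOM1* was at 247, 178 and 312 CPM in UCP1 KI pigs and 302, 335 and 563 CPM in WT pigs. *MYPN*, which encodes the sarcomere protein myopalladin, followed at 0.114 and *ESCO1* at 0.155. Their log2 fold changes were -0.70, -0.71 and -0.46. Values near that of *SLN* follow from the rule that picked these genes and are no separate result. No genes were sought for *RYR1*, which had no values.

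Ratios of counts of a pair of genes within 1 library do not depend on how libraries are scaled, and they were compared between the groups. They are ratios of RNA counts without correction for transcript length and do not give the proportions of the proteins. Of 10 ratios planned, 2 could be computed, since the rest needed *RYR1*, *STAC3* or *PLN*. *CACNB1* against *CACNA1S* was 1.07, 0.922 and 1.28 in the UCP1 KI group against 0.695, 1.40 and 1.43 in the WT group, a mean difference of -0.05 on the log2 scale (two-sided exact permutation test, p = 0.9). *SLN* against *ATP2A1*, the SERCA pump gene of fast fibres, was 0.711, 1.26 and 0.697 in the UCP1 KI group against 2.16, 1.28 and 1.01 in the WT group. Its mean difference of -0.72 on the log2 scale had an exact permutation p of 0.2, and the groups overlapped because UCP1 KI replicate 2 lay among the WT pigs. It was -0.41 without WT replicate 1 and -0.998 without UCP1 KI replicate 2.

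With *CACNA1S* put in the place of *RYR1*, a choice made after the values were seen, 5 more ratios were formed. *TRDN* against *CACNA1S* was 1.02, 1.17 and 1.36 in the UCP1 KI group against 1.60, 2.46 and 1.90 in the WT group. All 3 UCP1 KI ratios were below all 3 WT ratios, including that of UCP1 KI replicate 2, which was the middle one of its group. The mean difference was -0.73 on the log2 scale, the UCP1 KI mean being 0.23 ± 0.21 and the WT mean 0.97 ± 0.31 (SD, 3 pigs each). The two-sided exact permutation p was 0.1, the smallest that 3 pigs against 3 allow, and 0.467 with Benjamini-Hochberg adjustment over the 7 ratios. Among all other genes tested, the ratio to *CACNA1S* was lower without overlap in UCP1 KI pigs for 3.35%, and it did not overlap in either direction for 9.88%.

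*SLN* against *CACNA1S* was 20.6, 21.2 and 23.1 in the UCP1 KI group against 22.5, 34.9 and 36.9 in the WT group. The UCP1 KI pigs lay close together, and UCP1 KI replicate 3 was just above WT replicate 1 (mean log2 difference -0.51, two-sided exact permutation test, p = 0.2). For *CASQ1*, *JPH1* and *JSRP1* the mean log2 differences against *CACNA1S* were -0.65, -0.22 and -0.24, with overlapping groups and exact permutation p values of 0.5, 0.6 and 0.4. That of *CASQ1* was -0.04 when UCP1 KI replicate 2 was left out and -1.09 when UCP1 KI replicate 1 was, and that of *JSRP1* was -0.09 when WT replicate 2 was. The ratio of *CASQ1* to *CACNA1S* was 3.45 in UCP1 KI replicate 2 and 8.28 to 15.3 in the other pigs, so *CASQ1* was low in that pig relative to the voltage sensor gene as well.

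**Figure D3:**
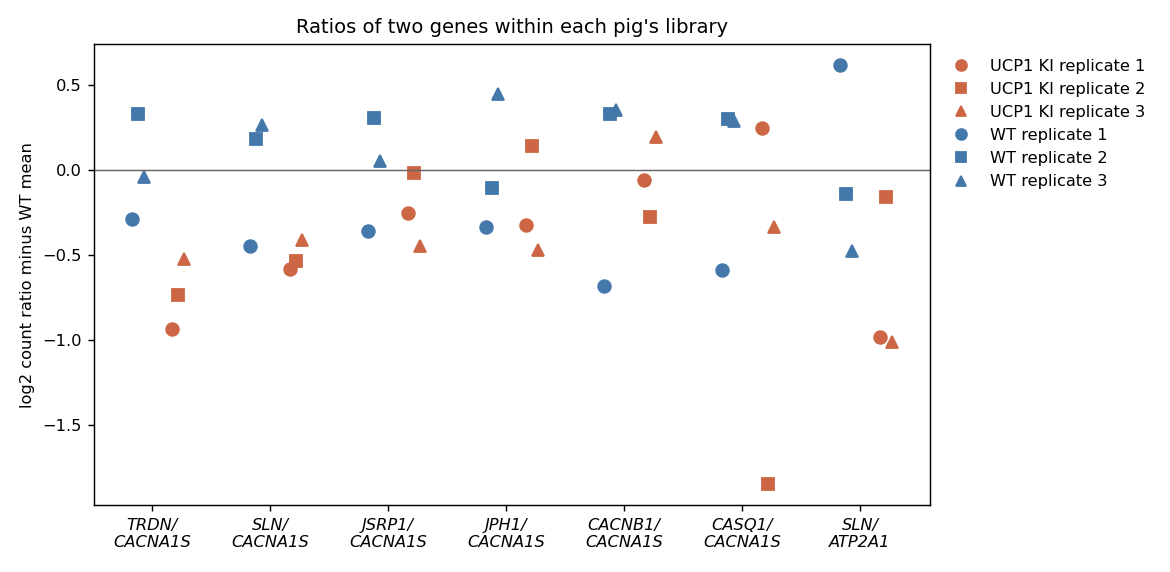
Log2 ratio of the counts of a pair of genes in each pig's library, minus the WT mean of that ratio (vertical axis), for 7 ratios (horizontal axis); blue markers are WT pigs and orange markers UCP1 KI pigs. *TRDN* against *CACNA1S* is the ratio of the 7 in which the groups are separate, and UCP1 KI replicate 2 lies lowest for *CASQ1* against *CACNA1S*.

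Other genes of the pathway were taken from a list of 84 genes for the voltage sensor, calcium release and the junction, reuptake, membrane excitation and calcium-calmodulin signalling. Of these, 71 were tested, 33 with log2 fold changes above 0 and 38 below 0, and 4 were called, 1 higher and 3 lower. With library size only, 4 were called as well, but 3 higher and 1 lower. Over all genes tested, 8.19% were called with TMM factors and 8.39% with library size only. The difference between these shares and 4 of 71 was not tested. The median over the 71 was -0.05, near that of all genes. In edgeR's test 0 of the 4 had an adjusted p under 0.05, each with an adjusted p of 0.583.

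Among the voltage sensor genes, *CACNA2D1*, the alpha2delta subunit, was at 192, 99.3 and 197 CPM in UCP1 KI pigs and 174, 159 and 180.5 CPM in WT pigs, with a log2 fold change of -0.07 ± 0.31 (SE). *CACNG1*, the gamma subunit of the muscle channel, was at 163, 83.5 and 134 CPM in UCP1 KI pigs and 184, 179 and 187 CPM in WT pigs. All 3 UCP1 KI pigs were below all 3 WT pigs for *CACNG1*, and yet its log2 fold change of -0.53 ± 0.29 (SE) did not pass the limits, with an unadjusted p of 0.106 by edgeR. Its separation rested on the scaling: with library size only, *CACNG1* was at 154.8, 98.6 and 157 CPM in the UCP1 KI libraries and 197, 140.2 and 172 CPM in the WT libraries, which overlapped. The log2 fold change was -0.31 with library size only and -0.31 without UCP1 KI replicate 2.

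Both called genes of this group fell at low levels. *CACNA1C*, which encodes the L-type channel pore of heart and smooth muscle, was counted 12, 13 and 8 times in the UCP1 KI libraries and 54, 17 and 22 times in the WT libraries. Its log2 fold change was -1.56 ± 0.58 (SE), with an unadjusted p of 0.0282 by edgeR. *REM1*, a small GTPase that restrains L-type channels, was at 2.33, 2.52 and 2.94 CPM in UCP1 KI pigs and 7.71, 3.94 and 4.44 CPM in WT pigs. *REM1* fell by 1.05 ± 0.35 (SE) on the log2 scale, with an unadjusted p of 0.0179 by edgeR. WT replicate 1 was the highest pig for both, and without it they no longer passed, at -1.07 and -0.70. *CACNA1C* also lost its call with library size only, at -1.38, and when UCP1 KI replicate 1, 2 or 3 was left out, at -1.71, -1.67 and -1.33. *REM1* also lost its call with library size only, at -0.83, and when UCP1 KI replicate 1 was left out, at -0.97. Smooth muscle and pericyte markers were measured beside them: 5 of 5 had log2 fold changes below 0, 0 of 5 were called, and they summed to 292 to 429.6 CPM in UCP1 KI pigs and 375 to 854.5 CPM in WT pigs. Their part in these 2 results was not tested.

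Of the calcium release and junction genes, 17 were tested and 1 was called. *ITPR3*, an inositol trisphosphate receptor that releases calcium from internal stores in many cell types, was counted 323, 262 and 340 times in the UCP1 KI libraries and 108, 154 and 123 times in the WT libraries. *ITPR3* rose without overlap of the groups, by 1.08 ± 0.32 (SE) on the log2 scale with an unadjusted p of 0.0101 by edgeR, and passed both limits in all 13 alternative analyses. *RYR3*, the ryanodine receptor paralog, was counted 160, 284 and 136 times in the UCP1 KI libraries and 363, 46 and 68 times in the WT libraries, with a log2 fold change of 0.26 ± 0.68 (SE). WT replicate 1 held the highest value of *RYR3*, and without that pig the log2 fold change was 1.49 and passed both limits. Without WT replicate 2, the log2 fold change of *RYR3* was -0.14.

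The SERCA pumps, which *SLN* regulates, were also tested. *ATP2A1* was at 4557, 1769.7 and 6367 CPM in UCP1 KI pigs and 1633, 3549 and 6999 CPM in WT pigs, with a log2 fold change of 0.06 ± 0.64 (SE). *ATP2A2*, the pump of slow fibres and heart, was at 494, 619 and 483 CPM in UCP1 KI pigs and 734, 167 and 296 CPM in WT pigs, with a log2 fold change of 0.41 ± 0.51 (SE). The WT pigs bracketed the UCP1 KI pigs for both pumps, and WT replicate 1 was lowest for *ATP2A1* and highest for *ATP2A2*. Without WT replicate 1, *ATP2A2* passed both limits at 1.20, whereas it was at 0.05 without WT replicate 2 and at 0.24 without WT replicate 3. Of the 17 reuptake and store genes and the 8 membrane excitation genes tested, 0 were called in either list.

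Of 20 calcium-calmodulin signalling genes tested, 1 was called. *NFATC2*, a calcineurin-dependent transcription factor also abundant in lymphocytes, was at 4.49, 3.70 and 1.03 CPM in UCP1 KI pigs and 6.34, 15.1 and 9.31 CPM in WT pigs. *NFATC2* fell without overlap of the groups, by 1.74 ± 0.57 (SE) on the log2 scale with an unadjusted p of 0.0163 by edgeR, and was at -1.35 and no longer called without WT replicate 2. Leukocyte markers lay the other way by group, with 6 of 6 tested above 0 and 1 called. They summed to 43.8, 74.4 and 20.8 CPM in UCP1 KI replicates 1 to 3 and 25.6, 38.4 and 20.5 CPM in WT replicates 1 to 3. UCP1 KI replicate 3, the lowest pig for *NFATC2*, thus had the lowest leukocyte sum of its group. Their part in the *NFATC2* result was not tested.

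**Figure D4:**
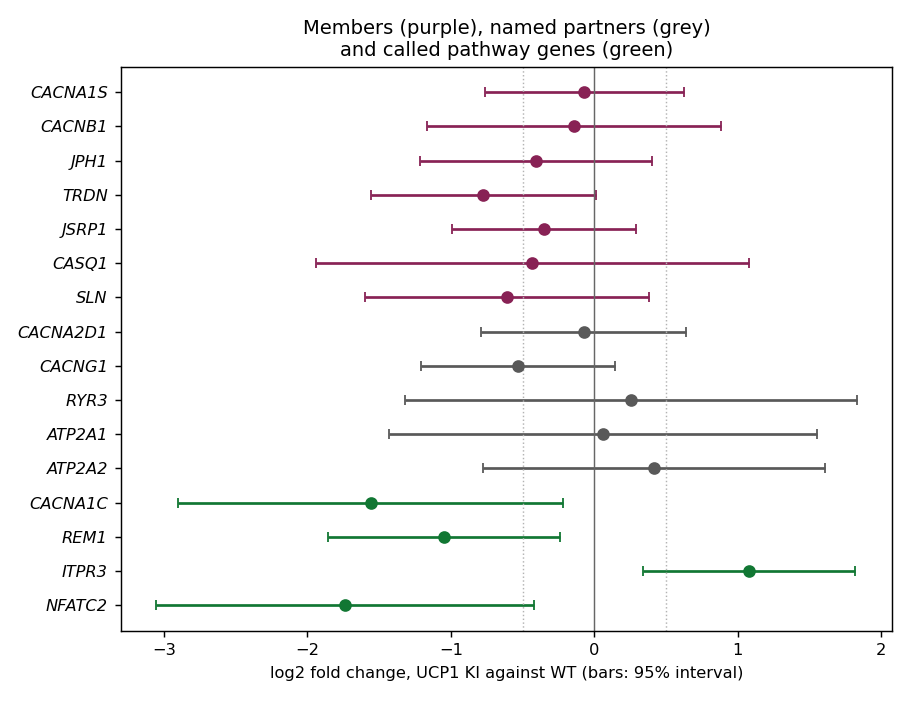
Log2 fold change, UCP1 KI against WT, with 95% intervals (horizontal axis) for the 7 members (purple), 5 partners or paralogs (grey) and the 4 called genes of the wider pathway list (green); dotted lines mark the fold change limit of 0.5. The interval of every member includes 0, with the upper end of *TRDN* at 0.01, and the intervals of the 4 called genes do not.

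Skeletal muscle genes were abundant, with *TNNT3* at a mean of 22401 CPM in WT pigs, while the 4 heart markers found of 6 listed were not all low. *NPPB* and *MYL4* had 0 to 6 counts per pig and *TNNI3* had 111 to 218, whereas *MYH6* had a mean of 5217 CPM in UCP1 KI pigs and 4063 CPM in WT pigs and made up nearly all of the list's sum of 1175 to 8626 CPM over the pigs. *MYH6* is a close copy of the slow fibre gene *MYH7*, which had no identifier of the table. Whether reads of *MYH7* were counted for *MYH6* was not tested. Other cell type lists that were measured beside the members gave 5 of 5 fibroblast markers below 0 with 3 called, at 199 to 367 CPM in UCP1 KI pigs and 578 to 926 CPM in WT pigs, and 5 of 5 tested adipocyte markers below 0 with 0 called. Of endothelial, Schwann cell, red blood cell and heart markers, 5, 5, 2 and 2 were tested, 1, 4, 2 and 0 were below 0, and 1, 0, 0 and 0 were called. Of the red blood cell markers, *HBB* was at 74.8, 11.3 and 72.4 CPM in UCP1 KI pigs and 103, 106 and 177 CPM in WT pigs, without overlap. With library size only its groups overlapped, at 84.7 CPM in UCP1 KI replicate 3 and 82.7 CPM in WT replicate 2. The part of these cell types in the members' values was not tested. With library size only, the median over all genes rose by 0.25 on the log2 scale, the calls changed from 515 higher and 582 lower to 929 higher and 195 lower, and *CACNA1S* and *CACNB1* turned to 0.17 and 0.14. Relative to the median of all genes, the members' median was -0.39 with TMM factors and -0.39 with library size only.

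**Figure D5:**
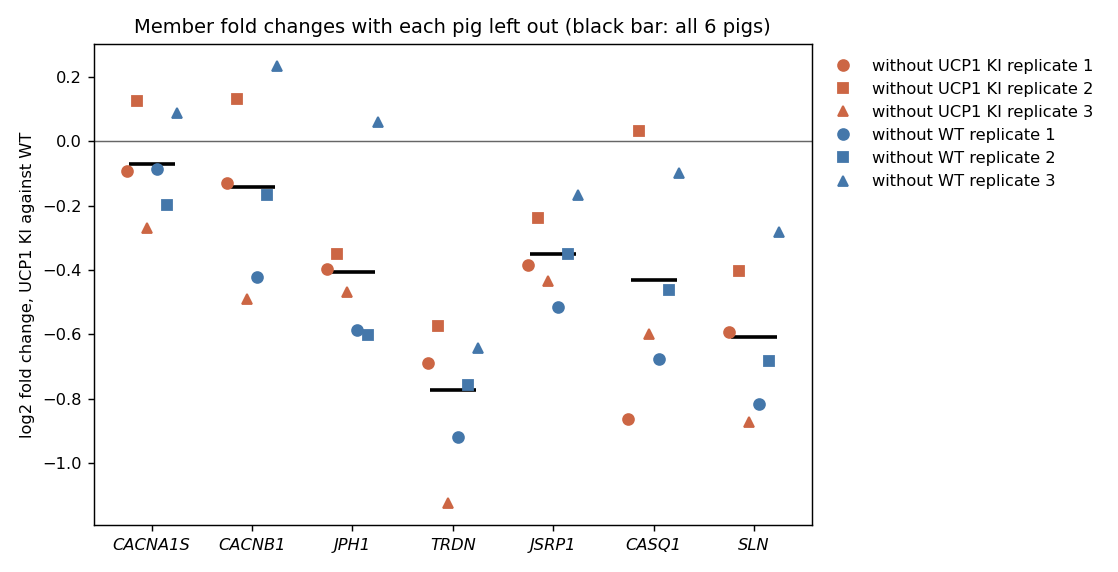
Log2 fold change, UCP1 KI against WT (vertical axis), of the 7 members with all 6 pigs (black bar) and after removal of 1 pig at a time (markers coloured by the group of the pig left out). *TRDN*, *JSRP1* and *SLN* stay below 0 throughout, with *TRDN* between -1.13 and -0.58, while *CACNA1S*, *CACNB1*, *JPH1* and *CASQ1* cross 0 without UCP1 KI replicate 2 or WT replicate 3.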

How the data were processed

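RNA of longissimus dorsi from 3 UCP1 KI pigs and 3 WT pigs was extracted with TRIzol, and mRNA libraries were sequenced in paired ends on an Illumina instrument. Per the submitters' processing notes, the authors used FastQC 0.11.2, Trimmomatic 0.36, HISAT2 2.0, bedtools 2.26.0, StringTie 1.3.3b and DESeq2 1.12.4, with the build Sscrofa11.1. The deposited values are raw counts per Ensembl gene, which the authors did not normalize. Each pig has 1 column, and the number of columns not used was 0. StringTie was used for expression values. Whether it also made the deposited counts, and the annotation release, are not given in the sources used here.

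The count test was edgeR 4.0.16 under R 4.3.3, with filterByExpr, TMM factors and a quasi-likelihood F test with condition as the only term, fitted over 13402 genes, two-sided. A call needed p under 0.05, taken here as unadjusted, and a log2 fold change beyond 0.5 in size, the limits of the study, where adjustment of p is not stated. Adjusted p values are by Benjamini-Hochberg over the whole table tested. The standard error is the log2 fold change divided by the square root of F, and 95% intervals use the t distribution with the test's degrees of freedom. Ratios had 0.5 added to each count and were compared by exact permutation over the 6 pigs.

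Symbols came from a table of Ensembl gene names, and coordinates from RefSeq on Sscrofa11.1. No transcript lengths or sequences were at hand, so levels were not compared between genes. Named genes were all members, called pathway genes, *ATP2A1*, *ATP2A2*, *CASQ2*, *JPH2*, *RYR3*, *CACNA2D1* and *CACNG1*, and those most like *RYR1* and *SLN*. *CASQ2* and *JPH2* had no identifier of the table and were not analysed here. The members and lists were chosen with earlier results of these data known. Alternatives were DESeq2 1.42.0 with and without the filter, edgeR with median-of-ratios factors or with library size only, other count filters, a replicate block and each pig left out. Each pig is 1 replicate, and nothing gives the litters, so p values measure the spread between these pigs. On simulated counts with 13108 genes tested, 30 of 47 genes changed by 1 on the log2 scale and 564 of 12917 unchanged genes were called.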

Additional observations from a re-analysis of the deposited data

How the results depend on the processing

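The count of members called was 0 in edgeR's test with TMM factors and 1, *TRDN* each time, in both DESeq2 runs, with median-of-ratios factors, with at least 10 counts in every pig and in the fit with a replicate block. Of all genes tested in these fits, 6.92% to 9.77% were called. The member count ranged from 0 to 1 when 1 pig was left out, the value of 1 coming from the fits that lacked UCP1 KI replicate 3 or WT replicate 1. Without a fold change limit it was also 0. *TRDN* was at -0.49 with library size only, and its unadjusted p ranged from 0.00992 to 0.206 over the alternatives. The members' median ranged from -0.59 to -0.10 over the fits that left out 1 pig. The count of other pathway genes called was 4, 7 with the replicate block (8.31% of all genes), 3 under the filter of 10 counts per pig (8.47%), 5 with DESeq2 on unfiltered genes (6.92%), and 4 to 10 with each pig left out (4.92% to 11%), the highest without UCP1 KI replicate 3 (8.33%).

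Signs that changed were those of *CACNA1S* (0.17), *CACNB1* (0.14) and *CACNA2D1* (0.15) with library size only, where *JPH1* was at -0.15, *JSRP1* at -0.08, *CASQ1* at -0.21 and *SLN* at -0.34. With each pig left out, the log2 fold change ranged from -0.27 to 0.13 for *CACNA1S*, -0.49 to 0.23 for *CACNB1*, -0.86 to 0.032 for *CASQ1*, -0.60 to 0.059 for *JPH1*, -0.34 to 0.71 for *ATP2A1*, -0.14 to 1.49 for *RYR3* and -0.23 to 0.17 for *CACNA2D1*. The log2 ratio of *CACNB1* to *CACNA1S* ranged from -0.39 to 0.13, that of *JPH1* from -0.40 to 0.0051, that of *CASQ1* from -1.09 to -0.04, that of *JSRP1* from -0.42 to -0.09, that of *SLN* from -0.73 to -0.38 and that of *TRDN* from -0.88 to -0.57. The ratio of *SLN* to *ATP2A1* ranged from -0.998 to -0.41. Of the 2 planned ratios, 0 were without overlap with all pigs and 0 to 1 with each pig left out. The cause of these changes was not tested. *CACNA1C* lost its call in 5 of 12 alternatives, *REM1* in 3 of 13 and *NFATC2* in 1 of 13.

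The labels do not say whether the replicate numbers pair the pigs. Deviations of same-numbered pigs from their group means correlated at 0.00, 0.09 and 0.28 over genes. The value of 0.28, for replicates 3, was the highest of all pairings, while UCP1 KI replicate 1 was closest to WT replicate 2, at 0.13. Such correlations cannot tell whether pigs shared a litter or a batch. The precision is limited by 3 pigs per group and not by depth, since every member had at least 3460 counts in each pig.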

Other observations

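Some genes of the pathway list were chosen for mention after their values were seen. *PVALB*, the calcium buffer parvalbumin of fast fibres, was at 103, 0.336 and 59.5 CPM in UCP1 KI pigs and 101, 267 and 272 CPM in WT pigs. UCP1 KI replicate 2 had 12 counts of *PVALB*, where the other 5 pigs had between 2246 and 8156, and it was the same pig that was lowest for the 7 excitation-contraction coupling genes with TMM factors and for 5 of them with library size only. With library size only, the *PVALB* values were 97.9, 0.397 and 69.6 CPM against 107, 208 and 249.6 CPM and the groups did not overlap, whereas they overlapped with TMM factors. Its log2 fold change with TMM factors was -1.97 ± 1.32 (SE) and did not pass the limits, with an unadjusted p of 0.175 by edgeR.

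*ATP2B4*, a calcium pump of the plasma membrane, was lower in each UCP1 KI pig (46.7, 55.9 and 57.0 CPM) than in each WT pig (105.8, 58.4 and 71.2 CPM) with TMM factors. With library size only, *ATP2B4* was at 44.2, 65.9 and 66.8 CPM against 112.8, 45.6 and 65.3 CPM, and the groups overlapped. Its log2 fold change with TMM factors was -0.56 ± 0.28 (SE) with an unadjusted p of 0.0801 by edgeR.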
